A study of Mus musculus with 28 samples.

Results

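Genes that are widely used as readouts of the glucocorticoid receptor, 10 in number, were followed across 28 RNA-seq libraries of O9-1 cells, a mouse cranial neural crest line. The members were taken by name as Fkbp5, Tsc22d3, Per1, Zbtb16, Sgk1, Klf9, Klf15, Dusp1, Mt1 and Mt2, and all 10 were found among the 54429 genes of the count table. The rule uses gene names alone, although the set was proposed with earlier results of these data known. The study asked how such cells differentiate at 21% oxygen (normoxic) and at 0.5% oxygen (hypoxic), in 4 media, with 4 libraries per normoxic group and 3 per hypoxic group.

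Proliferating cells were kept in DMEM conditioned by STO feeder cells, with 15% fetal serum, 55 µM beta-mercaptoethanol, 25 ng/ml bFGF and 5 ng/ml LIF. The smooth muscle medium was DMEM with 10% serum for 3 days. The osteoblast medium was alpha-MEM with 10% serum, 10 mM beta-glycerophosphate, 0.1 µM dexamethasone and 100 ng/ml BMP-2 for 10 days. Chondrocyte cultures spent 3 days in osteoblast medium and then 7 days as micromasses on matrigel in alpha-MEM with 5% serum, ITS, 0.1 µM dexamethasone, 10 ng/ml TGF-beta3 and 50 ng/ml BMP-2. Dexamethasone, a synthetic glucocorticoid, was therefore present in the chondrocyte and osteoblast media only, and always together with BMP-2, alpha-MEM and a culture time of 10 days in all. Its part in any difference between media cannot be told apart from theirs. All libraries come from 1 cell line, and the labels do not say whether replicates were separate cultures, so the p-values measure the spread between these libraries, which may be technical.

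The glucocorticoid receptor is a nuclear receptor that waits in the cytoplasm bound to heat-shock chaperones and the immunophilins Fkbp4 and Fkbp5. With hormone bound it enters the nucleus, where it raises genes near glucocorticoid response elements and lowers many inflammatory genes. Among the genes it raises are brakes on the receptor itself (Fkbp5), anti-inflammatory mediators (Tsc22d3, which encodes GILZ, and the MAP kinase phosphatase Dusp1), transcription factors (Klf9, Klf15, Zbtb16), the clock repressor Per1, the kinase Sgk1 and the metal-binding metallothioneins. Dexamethasone is a standard ingredient of osteogenic and chondrogenic media. Several of these genes are also known to answer other inputs, the metallothioneins to zinc and low oxygen, and Dusp1 to stress and mitogens.

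Library size ranged from 19.87 to 64.69 M counted reads, with a median of 26.8 M. The labels did not match the defining markers in 2 groups. Among the normoxic osteoblast libraries, 3 of 4 held almost no RNA of the osteoblast markers Sp7 and Ibsp. Sp7 was between 0.670 and 1.36 CPM (counts per 1e+06 counted reads) in replicates 1 to 3 and 45.4 in replicate 4. Ibsp was between 0.384 and 0.475 in replicates 1 to 3 and 3.20 in replicate 4. Runx2, of the same list, was at 57.2 to 69.1 CPM in the normoxic osteoblast and 58.3 to 67.3 CPM in the normoxic proliferating libraries. The summed osteoblast list of 5 genes was 62.7 to 146 CPM there, 58.4 to 67.4 CPM in normoxic proliferating cells and 1050 to 2550 CPM in normoxic chondrocyte cultures, so that the chondrocyte cultures held far more of it than the osteoblast cultures. The normoxic osteoblast libraries also held 3060 to 4680 CPM of the smooth muscle list of 4 genes. In the hypoxic smooth muscle group, the summed smooth muscle list was between 28.5 and 42.3 CPM, against 3320 to 3760 CPM in the normoxic smooth muscle libraries and 36.3 to 43.3 CPM in hypoxic proliferating cells. The same 3 hypoxic smooth muscle libraries carried between 11.6% and 13.3% of their reads in mitochondrial ribosomal RNA, against 0.0252% to 0.0889% in the other 25. The group names below are those of the labels.

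All levels below are CPM scaled by the trimmed mean of M-values (TMM) over the 28 libraries, listed in order of replicate number. They may be compared between groups for 1 gene, and between genes only per kilobase of exon. Tests are edgeR quasi-likelihood tests with Benjamini-Hochberg adjustment over all genes tested, a gene being called at an adjusted p below 0.05, and each log2 fold change is given with its standard error (SE). Since bulk RNA was measured, fewer cells of a type and less RNA per cell cannot be told apart. Dividing by library size alone, in place of TMM, moved the median log2 difference of all genes by -1.28 and -1.37 in the comparisons of hypoxic smooth muscle with hypoxic proliferating and with normoxic smooth muscle cells. The share of calls that were higher then went from 48.3% to 15% and from 46.8% to 15.6%, and the members whose direction flips are named where they appear. In the other comparisons the median moved by at most 0.348 in size. The share of higher calls went from 50.3% to 34.7% for normoxic chondrocyte against proliferating, from 50.2% to 31.8% for the hypoxic counterpart, from 50.8% to 38.2% for hypoxic osteoblast against proliferating and from 52% to 65.7% for normoxic osteoblast against chondrocyte. It went from 46.9% to 31.8% for chondrocyte cells and from 49.6% to 36.9% for osteoblast cells between 0.5% and 21% oxygen, and from 50.2% to 32.2% (normoxic) and from 51.6% to 64.6% (hypoxic) for media with dexamethasone against the others.

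In the normoxic cells, all 10 members were called higher in the media with dexamethasone than in those without, with a median log2 difference of 3.27 against -0.01 over all genes. This contrast sets the mean of the chondrocyte and osteoblast groups against the mean of the proliferating and smooth muscle groups. Of all genes tested, 35.1% were called higher and 34.8% lower, so a call alone was common and the size of the difference tells more. The smallest difference was that of Dusp1, 0.52 (SE 0.161, adjusted p = 0.00811, but 0.26 and adjusted p = 0.152 under library-size scaling and 0.0508 with limma-voom), followed by 1.21 for Sgk1, 2.39 for Per1 and 2.53 for Klf9. Mt1 stood at 2.98, Fkbp5 at 3.57, Mt2 at 4.51, Tsc22d3 at 4.63, Klf15 at 5.90 and Zbtb16 at 10.84. For 7 of the 10 members every library with dexamethasone lay above every library without it, the exceptions being Sgk1, Klf15 and Dusp1. How many of all genes separate in this way was not counted, here or wherever libraries are said below not to overlap. Such counts therefore do not set the members apart from other genes. Without the smooth muscle group, Sgk1 was no longer called (log2 0.13, adjusted p = 0.337) and the other 9 were, with Fkbp5 at 2.53, Dusp1 at 0.97, Mt1 at 3.76, Mt2 at 5.80, Tsc22d3 at 5.43 and Klf15 at 9.32.

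In the hypoxic cells, too, all 10 were called higher with dexamethasone in the medium, with a median of 3.34 against 0.01 over all genes, where 38.7% of genes were called higher and 36.3% lower. Fkbp5 differed by 4.64, Tsc22d3 by 4.84, Klf15 by 6.36, Mt2 by 4.00, Klf9 by 2.67, Mt1 by 2.19, Sgk1 by 2.09 and Per1 by 1.71 on the log2 scale. Dusp1 again differed least, by 0.53 (SE 0.104, adjusted p = 0.000164). The libraries did not overlap for 6 of the 10 members, the exceptions being Per1, Sgk1, Dusp1 and Mt1. Since the hypoxic smooth muscle group enters this contrast, the contrast was also fitted without it, and all 10 were again called higher. The values then differed, with Per1 at 2.57, Sgk1 at 1.31, Fkbp5 at 3.98, Mt1 at 2.80, Mt2 at 4.54 and Klf15 at 7.87.

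**Figure D1:**
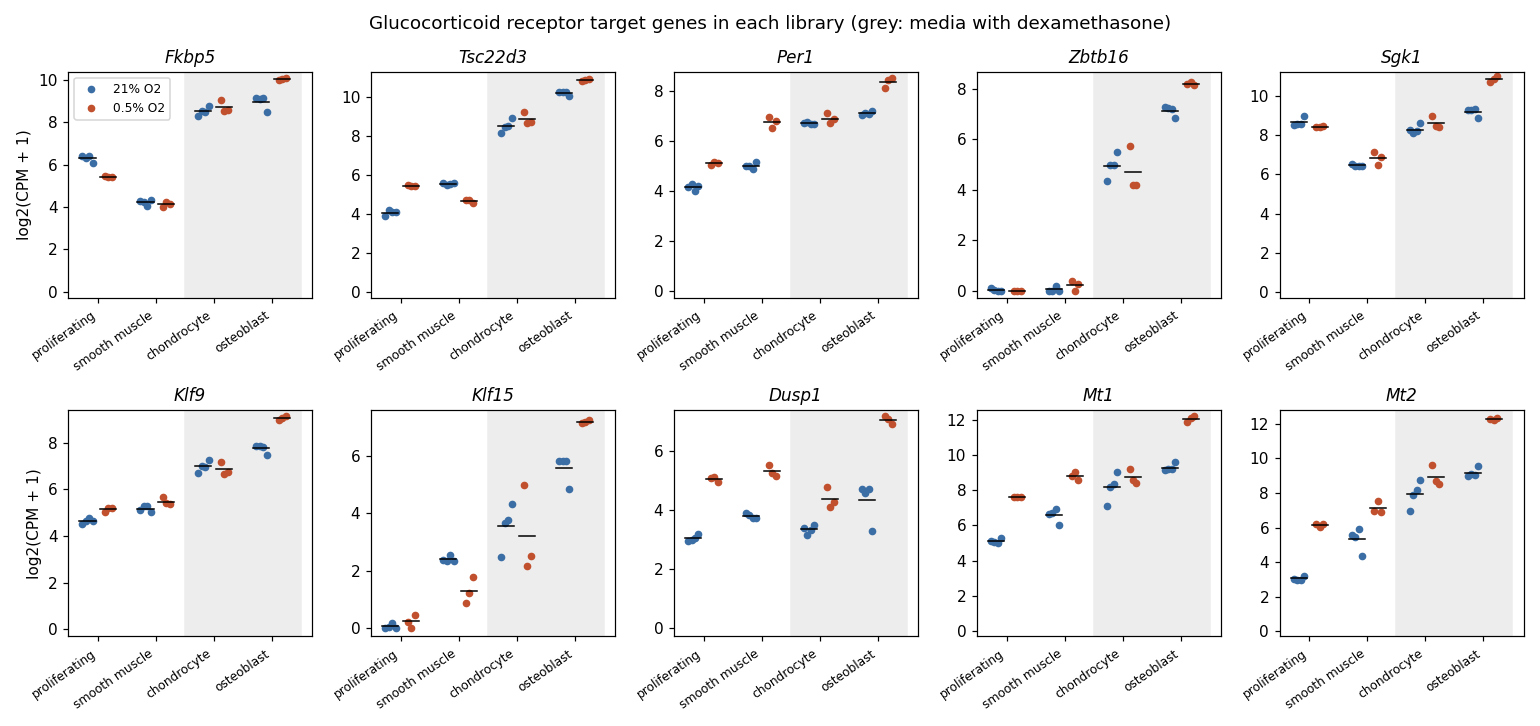
Level of each member in every library, as log2(CPM + 1) on the vertical axis, by group on the horizontal axis; each point is 1 library (blue at 21% oxygen, red at 0.5%), the short black line is the group mean, and grey marks the media with dexamethasone. The hypoxic osteoblast libraries are the highest of all for each of the 10 genes, and Zbtb16 lies near 0 in every library without dexamethasone.

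Only windows from 250 bases before to 50 bases after annotated transcript starts were available for a look at regulatory sequence (RefSeq, GRCm38.p6), and 9 of the 10 members had at least 1 such window; Zbtb16 had none. The palindromic glucocorticoid response element was searched as GNACA, any 3 bases, then TGTNC, on both strands. It was found in 1 of 6 Sgk1 windows and in the Mt1 window, whereas 0.472% of all 32851 windows hold it. Its single arm, TGTTCT, which also matches inside the element, was found in 1 of 3 Tsc22d3 windows and 3 of 6 Sgk1 windows, against 19% of all windows. The core of the metal response element was searched with the loose letters TGCNCNC, so that a match need not be a true core. Such a match was present in at least 1 window of 8 members (53.6% of all 27025 genes with a window). The core of the hypoxia response element, GCGTG, was present in 7 (35.2%) and the E-box CACGTG in 5 (8.09%). The cyclic AMP response element TGACGTCA was found in Dusp1 alone (2.03%). Members with several windows have more chances of a match. A match describes letters, not binding, and no match says only that the letters are not in this window. Stretches around selected matches are printed with some of the genes below.

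Fkbp5 encodes FKBP51, the co-chaperone that lowers the receptor's affinity for hormone, so that its induction forms a short feedback loop. The gene lies on chromosome 17 (GRCm38 28399094 to 28517527, minus strand), where it overlaps antisense genes; whether the counting used strand is not given in the sources used here. In normoxic libraries its level was 83.3, 78.5, 82.5 and 66.0 CPM in proliferating cells, 18.2, 17.7, 15.6 and 18.8 in smooth muscle medium, 316.5, 367.9, 359.0 and 440.2 in chondrocyte medium and 564.3, 546.4, 557.9 and 360.2 in osteoblast medium. In hypoxic libraries it was 43.1, 41.3 and 42.0 in proliferating, 15.1, 17.8 and 16.8 in smooth muscle, 520.1, 373.1 and 382.9 in chondrocyte and 1006, 1038 and 1075 in osteoblast cultures. Every library with dexamethasone thus held more Fkbp5 RNA than every library without, at both oxygen levels, and the 2 chondrocyte groups and the normoxic osteoblast group overlapped with a neighbour. The smooth muscle medium gave the lowest levels, below proliferating cells at 21% oxygen by a log2 fold change of -2.09 (SE 0.0825, adjusted p = 2.22e-12) and at 0.5% by -1.23. Against proliferating cells Fkbp5 was higher by 2.33 (SE 0.105, adjusted p = 2.46e-09) in normoxic chondrocyte and by 2.76 (SE 0.149) in normoxic osteoblast cultures, and by 3.33 (SE 0.127) and 4.62 (SE 0.0727) in their hypoxic counterparts.

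Tsc22d3 encodes the leucine-zipper protein GILZ, which restrains NF-kappaB and AP-1 and carries much of the anti-inflammatory action of glucocorticoids, from chromosome X (140539528 to 140600659, minus strand). The 86 bases below, upstream of 1 of its starts, are shown because they hold the only arm of a glucocorticoid element found in its windows, 185 bases before the start and in capitals.
Tsc22d3 chrX:140600662-140600747: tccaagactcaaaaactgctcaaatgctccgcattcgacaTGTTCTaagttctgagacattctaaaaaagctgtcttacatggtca
Normoxic levels of Tsc22d3 were 13.9, 17.5, 16.0 and 16.0 CPM in proliferating, 48.0, 44.3, 45.1 and 48.1 in smooth muscle, 289.6, 352.4, 365.1 and 478.6 in chondrocyte and 1229, 1236, 1216 and 1056 in osteoblast cultures. Hypoxic levels were 43.4, 42.6 and 42.7 in proliferating, 25.8, 25.0 and 22.9 in smooth muscle, 604.7, 401.6 and 415.7 in chondrocyte and 1786, 1884 and 1963 in osteoblast cultures. The 4 groups with dexamethasone stood above the 4 without, and only the chondrocyte groups overlapped each other. Tsc22d3 was 24.6-fold higher in normoxic chondrocyte than in proliferating cells (log2 4.62, SE 0.156, adjusted p = 1.39e-09), and the osteoblast difference was 6.28 on the log2 scale (SE 0.102, adjusted p = 1.63e-10). Its response to smooth muscle medium ran in opposite directions, 1.60 at 21% oxygen and -0.68 at 0.5%.

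Dusp1 encodes a nuclear phosphatase that switches off p38, JNK and ERK kinases. Its model on chromosome 17 (26505590 to 26562128, minus strand) overlaps Ergic1 on the opposite strand, with the same limit on strand. The cyclic AMP response element in its window is shown in capitals, 143 bases before the start, since it is the only one among the members.
Dusp1 chr17:26508568-26508655: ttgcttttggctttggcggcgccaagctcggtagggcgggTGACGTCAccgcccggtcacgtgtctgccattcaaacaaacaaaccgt
At 21% oxygen Dusp1 was 6.67, 6.88, 7.26 and 8.09 CPM in proliferating, 13.8, 13.2, 12.4 and 12.4 in smooth muscle, 9.45, 7.84, 9.07 and 10.2 in chondrocyte and 25.3, 23.2, 25.2 and 8.84 in osteoblast cultures. At 0.5% oxygen it was 32.9, 34.2 and 30.1 in proliferating, 45.1, 37.3 and 34.8 in smooth muscle, 26.3, 16.0 and 18.1 in chondrocyte and 144.8, 136.7 and 120.5 in osteoblast cultures. The hypoxic osteoblast libraries stood alone at the top, and the media with and without dexamethasone overlapped at both oxygen levels. It was the 1 member called lower in a dexamethasone medium than in proliferating cells, in hypoxic chondrocyte cultures (log2 -0.69, SE 0.161, adjusted p = 0.0033). In normoxic chondrocyte cultures it was higher by 0.42 (SE 0.122, adjusted p = 0.0081), a call lost under library-size scaling (0.07, adjusted p = 0.61) and with the spread taken from all 28 libraries (0.35, adjusted p = 0.161). It was higher in smooth muscle medium by 0.90 at 21% oxygen and by 0.39 at 0.5%, where library-size scaling gave -0.88 and where the call was lost without hypoxic proliferating replicate 1 or 3 (adjusted p up to 0.0725), and in osteoblast cultures by 1.57 (SE 0.291) at 21% and 2.05 (SE 0.0873) at 0.5% oxygen.

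Zbtb16 encodes PLZF, a zinc-finger transcription factor of limb and axial skeletal patterning and a marker of osteogenic culture. Its locus is chromosome 9, 48654297 to 48836222, minus strand. Over the 4 normoxic proliferating libraries 5 reads were counted in all, over the 4 normoxic smooth muscle libraries 5, over the 3 hypoxic smooth muscle libraries 6, and over the 3 hypoxic proliferating libraries 0. With dexamethasone in the medium the level was 19.4, 30, 30.8 and 44.4 CPM in normoxic chondrocyte and 152.6, 147.3, 144.8 and 112.3 in normoxic osteoblast cultures, and 51.5, 17.3 and 17.1 in hypoxic chondrocyte and 286.4, 303.6 and 283.6 in hypoxic osteoblast cultures. No other member was as close to absent without dexamethasone and present in every library with it. Against a floor of 3 reads over the hypoxic proliferating group, Zbtb16 was at least 838-fold higher in hypoxic chondrocyte and at least 8520-fold higher in hypoxic osteoblast cultures. Without hypoxic chondrocyte replicate 1 the first of these was at least 503-fold. The chondrocyte call (adjusted p = 0.0264) was lost without hypoxic chondrocyte replicate 2 or 3 (adjusted p up to 0.0892) and without the filter on low counts (0.0644).

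Klf15 encodes a Krüppel-like factor that steers amino acid and lipid metabolism and acts in feed-forward loops with the receptor. Chromosome 6 carries it (90462576 to 90475238, plus strand). Normoxic levels were 0, 0.027, 0.133 and 0 CPM in proliferating, 4.23, 4.03, 4.82 and 4.05 in smooth muscle, 4.63, 11.9, 12.7 and 19.0 in chondrocyte and 56.2, 55.7, 56.3 and 27.7 in osteoblast cultures. Hypoxic levels were 0.163, 0 and 0.377 in proliferating, 0.825, 1.297 and 2.41 in smooth muscle, 30.6, 3.43 and 4.76 in chondrocyte and 141.5, 147.1 and 151.8 in osteoblast cultures. Unlike Zbtb16, Klf15 was thus well above its proliferating level in serum medium without dexamethasone (log2 6.84, SE 0.433 at 21% oxygen), and the lowest normoxic chondrocyte library lay within the smooth muscle range. Hypoxic chondrocyte replicate 1 stood at 7.47 times the mean of the other two. Against hypoxic proliferating cells, chondrocyte cultures were higher by 6.12 (SE 1.64, adjusted p = 0.0275), a call lost without any 1 of the 3 hypoxic proliferating libraries (adjusted p up to 0.0972), without the filter on low counts (0.0501) and with limma-voom (0.23).

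Klf9 encodes a related factor that opposes proliferation. Its gene is on chromosome 19 (23141226 to 23168134, plus strand). Its levels were 22.1, 23.8, 26.2 and 23.7 CPM in normoxic proliferating, 33.7, 37.6, 37.8 and 32.1 in smooth muscle, 103.3, 125.4, 125.0 and 153.0 in chondrocyte and 233.9, 234.2, 226.3 and 176.6 in osteoblast cultures. Under hypoxia they were 31.8, 36.0 and 36.2 in proliferating, 49.8, 41.5 and 39.9 in smooth muscle, 144.4, 99.9 and 107.0 in chondrocyte and 506.2, 539.1 and 574.0 in osteoblast cultures. Media with dexamethasone did not overlap the others at either oxygen level. The log2 difference from proliferating cells was 2.48 (SE 0.109) in normoxic chondrocyte and 3.24 in normoxic osteoblast cultures, 1.75 and 3.96 in the hypoxic ones, and 0.61 and 0.46 in smooth muscle medium at 21% and 0.5% oxygen, the last of which became -0.81 under library-size scaling.

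Per1 encodes a repressor of the circadian clock and is a classical fast target of the receptor. It lies on chromosome 11 (69095217 to 69109960, plus strand). The E-box in the window of 1 of its 2 starts, the element through which clock proteins act on it, is shown in capitals, 166 bases before the start.
Per1 chr11:69098743-69098828: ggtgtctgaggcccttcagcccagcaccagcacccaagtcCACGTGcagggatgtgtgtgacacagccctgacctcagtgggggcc
Per1 stood at 16.7, 18.0, 15.0 and 17.1 CPM in normoxic proliferating, 30.7, 30.9, 28.3 and 34.2 in smooth muscle, 102.1, 107.2, 101.1 and 100.6 in chondrocyte and 129.4, 136.8, 131.4 and 143.2 in osteoblast cultures. Under hypoxia it stood at 31.2, 34.8 and 33.0 in proliferating, 120.8, 89.5 and 110 in smooth muscle, 134.8, 102.3 and 114.4 in chondrocyte and 275.7, 346.5 and 366.9 in osteoblast cultures. Its normoxic chondrocyte libraries lay close together (102.7 ± 3.06 CPM, SD, n = 4). The hypoxic smooth muscle libraries, with no dexamethasone, overlapped the hypoxic chondrocyte libraries, although division by library size alone gave means of 55.4 and 107 CPM. Per1 was higher than in proliferating cells by 2.69 (SE 0.0652, adjusted p = 1e-11) in normoxic chondrocyte and 3.07 in normoxic osteoblast cultures, and by 1.82 and 3.32 in the hypoxic ones.

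Sgk1 encodes a kinase that regulates sodium channels and transporters and answers to serum as well as to glucocorticoids. It lies on chromosome 10 (21882184 to 21999903, plus strand). The complete palindrome in 1 of its windows is shown in capitals, 189 bases before an internal start and inside the gene but outside annotated exons; both of its arms also match the single-arm search.
Sgk1 chr10:21993661-21993755: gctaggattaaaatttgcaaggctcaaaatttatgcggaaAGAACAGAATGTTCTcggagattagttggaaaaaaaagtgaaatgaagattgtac
Sgk1 departed from the other members in that proliferating cells already held much of it. At 21% oxygen it was 358.9, 369.5, 379.3 and 498.3 CPM in proliferating, 91.2, 84.4, 85.4 and 84.1 in smooth muscle, 300.6, 269.5, 290.6 and 381.7 in chondrocyte and 622.3, 618.2, 630.0 and 467.0 in osteoblast cultures. At 0.5% oxygen it was 338.6, 342.1 and 347.2 in proliferating, 138.7, 88.4 and 115.7 in smooth muscle, 504.9, 348.4 and 337.8 in chondrocyte and 1663, 1806 and 2014 in osteoblast cultures. Chondrocyte and proliferating cultures overlapped at both oxygen levels, and neither difference was called (-0.30, SE 0.134, adjusted p = 0.0671 at 21%; 0.20, SE 0.147, adjusted p = 0.255 at 0.5%). Under library-size scaling the first of these was -0.65 and called lower, and the second turned to -0.13. The first was also called without normoxic chondrocyte replicate 4 (adjusted p = 0.0106), with DESeq2 (0.0447), with all 28 libraries in the fit (0.0193) and with the replicate number as a block (0.00108). In osteoblast cultures Sgk1 was higher by 0.59 (SE 0.132, adjusted p = 0.00221) and 2.41 (SE 0.0767), and in smooth muscle cultures lower by 2.17 and 1.46 on the log2 scale. Per kilobase of exon, Sgk1 was the most abundant member in normoxic proliferating cells, at 81.9 CPM per kilobase, ahead of Mt1 at 27.2 and Mt2 at 12.5.

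Mt1 and Mt2 encode the small cysteine-rich metallothioneins, which bind zinc and copper and are induced through the metal sensor MTF1 as well as through the receptor. They are neighbours on chromosome 8, Mt2 at 94172664 to 94173568 and Mt1 at 94179082 to 94180327, both on the plus strand. The Mt1 stretch holds a full glucocorticoid element 95 bases before its start. The Mt2 stretch holds 5 matches to the loose metal response element search, the first 223 bases before its start. Not each of these need be a true core. Both sets of matches are in capitals. Mt2 and its stretch overlap the antisense gene Gm45774, with the same limit on strand.
Mt1 chr8:94178954-94179048: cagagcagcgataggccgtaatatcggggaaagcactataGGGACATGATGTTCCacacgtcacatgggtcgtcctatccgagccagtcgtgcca
Mt2 chr8:94172368-94172614: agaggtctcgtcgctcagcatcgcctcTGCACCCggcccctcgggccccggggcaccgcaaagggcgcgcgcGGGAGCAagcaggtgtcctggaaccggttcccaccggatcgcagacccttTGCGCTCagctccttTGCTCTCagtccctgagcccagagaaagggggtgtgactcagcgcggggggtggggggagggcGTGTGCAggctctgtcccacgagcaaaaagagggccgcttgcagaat
Mt1 was 33.8, 32.9, 31.2 and 37.8 CPM in normoxic proliferating, 100.7, 101.9, 118.7 and 63.7 in smooth muscle, 134.7, 287.8, 324.0 and 513.5 in chondrocyte and 558.5, 580.3, 589.3 and 773.1 in osteoblast cultures. Under hypoxia Mt1 was 194.5, 195.4 and 193.2 in proliferating, 439.0, 512.7 and 388.5 in smooth muscle, 585.9, 384.1 and 341.2 in chondrocyte and 3699, 4317 and 4665 in osteoblast cultures. The normoxic chondrocyte libraries spread over a wide range, and hypoxic smooth muscle and chondrocyte libraries overlapped, with means of 231.1 and 398.4 CPM when divided by library size alone.

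Mt2 ran from 6.89 to 8.30 CPM in normoxic proliferating cells. In the other normoxic groups it was 46.0, 43.3, 59.0 and 19.7 in smooth muscle, 124.4, 230.4, 286.5 and 425.1 in chondrocyte and 501.9, 541.5, 524.6 and 765.4 in osteoblast cultures. At 0.5% oxygen Mt2 was 72.0, 63.1 and 72.6 in proliferating, 122.1, 188.1 and 120.6 in smooth muscle, 797.4, 406.6 and 366.5 in chondrocyte and 5064, 4763 and 5144 in osteoblast cultures. In both oxygen conditions all Mt2 libraries with dexamethasone lay above all without. The ratio of Mt2 to Mt1 CPM within a library also differed between groups, from 0.216 ± 0.0054 (SD, n = 4) in normoxic proliferating cells to 0.928 ± 0.0453 in normoxic osteoblast cultures (n = 4) and 1.19 ± 0.153 (n = 3) in hypoxic osteoblast cultures. Against proliferating cells the log2 difference of Mt2 was 5.27 and 6.37 in normoxic chondrocyte and osteoblast cultures and 2.91 and 6.17 in the hypoxic ones, and that of Mt1 was 3.29, 4.26, 1.16 and 4.44. In hypoxic smooth muscle cultures Mt1 and Mt2 were called higher by 1.32 and 1.17, but library-size scaling gave 0.04 for Mt1 and turned Mt2 to -0.11.

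Counted by medium against proliferating cells, which serve as the shared control at each oxygen level, the members went mainly up. In normoxic chondrocyte cultures 9 of 10 were called higher and 0 lower, where 37.7% of all genes were higher and 37.2% lower, and the median was 2.99 against -0.00294 over all genes. In normoxic osteoblast cultures all 10 were called higher (40.9% of all genes higher, 37.8% lower), with a median of 3.75 against 0.07. For hypoxic chondrocyte cultures the count was 8 higher and 1 lower (34.9% and 34.6%), median 2.36 against -0.02, and for hypoxic osteoblast cultures 10 higher and 0 lower (36.2% and 35.1%), median 4.53 against 0.000997. The smooth muscle medium, which held serum and no dexamethasone, gave a smaller median, although Sgk1 was lower there by 2.17 on the log2 scale at 21% oxygen. There 7 of the 9 members tested were called higher and 2 lower at 21% oxygen (40.8% and 38.9%), with a median of 0.94 against 0.03. At 0.5% oxygen 6 of 9 were higher and 3 lower (33.8% and 36.2%), with a median of 0.46 against -0.07; Zbtb16 passed the filter on low counts in neither. The hypoxic count depends on the scaling: with library-size scaling 1 of the 9 was called higher and 5 lower, Klf15 (1.87, adjusted p = 0.0653), Mt1 (0.04, adjusted p = 0.673) and Mt2 (-0.11, adjusted p = 0.49) being no longer called. With the spread taken from all 28 libraries, Klf15 (adjusted p = 0.073) and Dusp1 (0.27, adjusted p = 0.314) lost their calls there. Fkbp5 and Sgk1 were lower in smooth muscle medium at both oxygen levels.

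**Figure D2:**
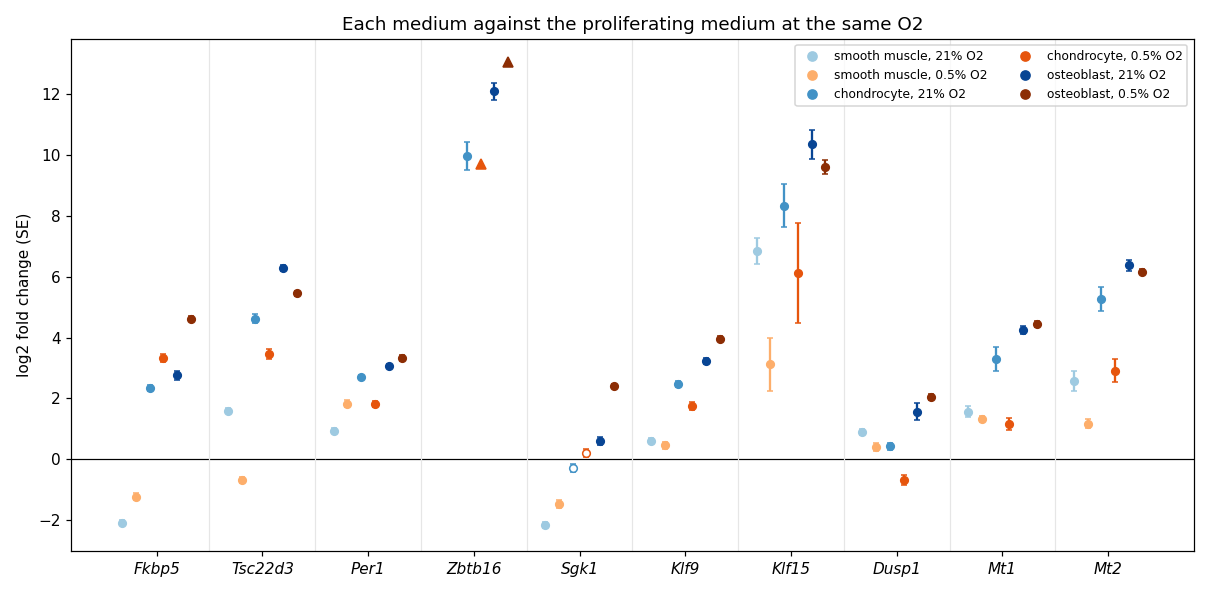
Log2 fold change of each member in each medium against proliferating cells at the same oxygen level; points are edgeR estimates, bars their SE, open circles are not called, and triangles are lower bounds against a group with 0 reads. At each oxygen level the osteoblast point is the highest for every member; with library-size scaling the hypoxic smooth muscle points of Klf9, Dusp1 and Mt2 and the hypoxic chondrocyte point of Sgk1 fall on the other side of 0.

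Between the 2 media with dexamethasone, the osteoblast cultures held more RNA of every member. All 10 were called higher in normoxic osteoblast than in normoxic chondrocyte cultures (31.1% of all genes higher, 28.6% lower), from 0.42 for Per1 and 0.47 for Fkbp5 (SE 0.153, adjusted p = 0.023) to 2.05 for Klf15 and 2.18 for Zbtb16, and the median was 1.08 against 0.03. All 10 were likewise called higher in hypoxic osteoblast than in hypoxic chondrocyte cultures (29.0% higher, 28.6% lower), from 1.28 for Fkbp5 to 3.34 for Zbtb16 and 3.48 for Klf15 (SE 0.959, adjusted p = 0.0364), with a median of 2.46 against -0.01. Without hypoxic chondrocyte replicate 1, which held the most of both, Klf15 differed by 5.14 (adjusted p = 2.05e-11) and Zbtb16 by 4.07 (adjusted p = 1.08e-11). The dexamethasone concentration was 0.1 µM in both media, whereas BMP-2, serum, TGF-beta3, beta-glycerophosphate and the micromass format differed. Cell type markers differed in the same comparisons, those of osteoblasts and chondrocytes mostly the other way. At 21% oxygen osteoblast cultures were lower than chondrocyte cultures in 4 of 5 osteoblast markers tested, among them Ibsp (-9.94, SE 0.789, adjusted p = 1.43e-05; 1.13 against 1174 CPM), Alpl (-4.50) and Sp7 (-3.77, adjusted p = 0.0319), and in 3 of 4 chondrocyte markers, among them Col2a1 (-3.95, adjusted p = 0.0276) and Acan (-3.57). Without normoxic osteoblast replicate 4 these differences were larger, with Sp7 at -7.28, Alpl at -7.16 and Col2a1 at -6.46. At 0.5% oxygen Ibsp (-3.23, SE 0.202), Sp7 (-1.29) and Col2a1 (-1.96) were lower and Runx2 (0.75) and Col9a1 (3.72) higher, and the summed osteoblast list was 366 to 393 CPM in osteoblast against 780 to 1260 CPM in chondrocyte cultures. Smooth muscle markers were higher with the members at 21% oxygen, 3 of 4 being called: Acta2 (0.79, adjusted p = 0.00081), Cnn1 (1.25, adjusted p = 0.00699) and Myh11 (3.27, adjusted p = 0.000209). At 0.5% oxygen Tagln (-1.27) and Cnn1 (-1.37) were lower and Myh11 (1.79) higher. The part of these markers in the members' levels was not tested. Without normoxic osteoblast replicate 4, 8 members were called, Mt1 and Mt2 being lost at adjusted p = 0.117 and 0.0725, and Mt1 was also lost without normoxic chondrocyte replicate 2 or 3. Fkbp5 lost its call when any 1 of 6 other libraries was left out (adjusted p up to 0.077), and the hypoxic Klf15 difference lost its call in 5 of the 6 such fits (up to 0.0958). With the replicate number as a block, the normoxic Fkbp5 difference (adjusted p = 0.0858) and the hypoxic Klf15 difference (0.0778) were not called. Without the filter on low counts, Mt1 (0.0955) and Mt2 (0.0574) in the normoxic comparison and Klf15 (0.0635) in the hypoxic one were not.

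In osteoblast medium all 10 members were called higher at 0.5% than at 21% oxygen. Of all genes tested there, 27.0% were called higher and 27.3% lower, and the median was 1.45 for the members against -0.03 over all genes. Mt2 had the largest difference, 3.10 (SE 0.159, adjusted p = 8.79e-07), followed by Mt1 at 2.76 (SE 0.145) and Dusp1 at 2.70 (SE 0.329, adjusted p = 0.000345). Sgk1 was higher by 1.65 (SE 0.126), Klf15 by 1.59 (SE 0.224), Klf9 by 1.31, Per1 by 1.29, Zbtb16 by 1.06, Fkbp5 by 1.04 (SE 0.149, adjusted p = 0.000379) and Tsc22d3 by 0.66 (SE 0.0927, adjusted p = 0.000314). For every member the 3 hypoxic osteoblast libraries lay above the 4 normoxic ones. Per kilobase of exon the hypoxic osteoblast levels ran from 8487 CPM for Mt2, 3393 for Mt1, 432.5 for Tsc22d3 and 372.7 for Sgk1 down to 40.5 for Dusp1. All 10 were also called without normoxic osteoblast replicate 4, with Dusp1 at 2.44, Fkbp5 at 0.90 and Mt2 at 3.25. Osteoblast markers moved with the same comparison: their summed level was 366 to 393 CPM in the hypoxic against 62.7 to 146 CPM in the normoxic osteoblast libraries. Of 4 tested, Ibsp, a bone matrix protein (5.89, SE 0.649, adjusted p = 0.00027), and Runx2, the osteoblast master regulator (1.14, SE 0.102, adjusted p = 2.09e-05), were called higher, and Sp7 (2.97, adjusted p = 0.131) and Alpl (2.69, adjusted p = 0.117) were not called. Normoxic osteoblast replicate 4 decided the last 2: without it all 4 were called higher, Sp7 by 6.48 (SE 0.138, adjusted p = 1.41e-12), Alpl by 5.36 and Ibsp by 7.28. Smooth muscle markers went down in the same comparison, 3 of 4 being called lower: Acta2 by 0.93 (adjusted p = 0.000844), Tagln by 1.10 (0.0132) and Cnn1 by 1.22 (0.0159), with summed levels of 1720 to 2000 CPM in the hypoxic and 3060 to 4680 CPM in the normoxic libraries. The part of either list in the members' levels was not tested.

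In chondrocyte medium Dusp1 was the only member called between 0.5% and 21% oxygen, higher by 1.13 (SE 0.165, adjusted p = 0.000656). Of all genes, 10.4% were called higher and 11.8% lower, so the members' count was near the share of all genes. The members' median was 0.27 against -0.01. The estimates for the others were 0.19 for Fkbp5 (SE 0.136, adjusted p = 0.367), 0.34 for Tsc22d3 (SE 0.196), 0.18 for Per1 (SE 0.0846, adjusted p = 0.15), 0.35 for Sgk1 (SE 0.166), 0.47 for Mt1 (SE 0.463) and 0.97 for Mt2 (SE 0.485, adjusted p = 0.231). Klf9 and Zbtb16 stood at -0.12 each and Klf15 at 0.11 (SE 0.901). The SEs were widest for Klf15, Zbtb16 (0.503) and the metallothioneins, whose libraries spread widely within a group, and an adjusted p above 0.05 does not show that the levels were alike. Without hypoxic chondrocyte replicate 1, Klf15 stood at -1.55 (adjusted p = 0.127) and Dusp1 was still the only member called. Without hypoxic chondrocyte replicate 2, Per1 was called as well (adjusted p = 0.0434). With the spread taken from all 28 libraries 3 members were called, Tsc22d3 (adjusted p = 0.0424) and Mt2 (0.0484) besides Dusp1, and with the replicate number as a block 2, Sgk1 (0.0182) besides Dusp1. Chondrocyte markers fell in this comparison, 3 of 4 tested being called lower at 0.5% oxygen: Col2a1 (-3.68, SE 0.763, adjusted p = 0.0221; 274.1 against 3512 CPM), Acan (-1.66, adjusted p = 0.00438) and Col9a1 (-7.86, adjusted p = 0.0162). Of 5 osteoblast markers Alpl (-1.57, adjusted p = 0.0445) and Bglap were called lower. Without hypoxic chondrocyte replicate 1, Col2a1 (-3.48, adjusted p = 0.0861), Col9a1 (adjusted p = 0.0732) and Alpl (0.133) were not called, and Acan and Bglap were. Their part in the members' values was not tested.

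Proliferating cells, which received no dexamethasone, also differed with oxygen. Of 8 members tested, 6 were called higher and 1 lower at 0.5% oxygen (33.1% of all genes higher, 32.3% lower), with a median of 1.26 against 0.01; Zbtb16 and Klf15 had too few reads. Mt2 was higher by 3.31 (SE 0.0845), Mt1 by 2.58 (SE 0.0641), Dusp1 by 2.23 (SE 0.0928), Tsc22d3 by 1.49 (SE 0.0758), Per1 by 1.03 and Klf9 by 0.59. Fkbp5 was called lower (-0.82, SE 0.0742, adjusted p = 3.23e-07), and Sgk1 was not called (-0.17, SE 0.115, adjusted p = 0.214). Hypoxic and normoxic proliferating libraries overlapped for none of the 7 members called.

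In smooth muscle medium 6 of 9 members were called higher and 2 lower at 0.5% oxygen (35.4% of all genes higher, 40.2% lower), with a median of 0.47 against -0.12. Mt1 was higher by 2.28, Per1 by 1.85 (SE 0.106), Mt2 by 1.84 (SE 0.387, adjusted p = 0.00529) and Dusp1 by 1.66, and Tsc22d3 was lower by 0.85 and Klf15 by 1.46. Sgk1 and Klf9 were called higher by 0.47 and 0.37, but both turned under library-size scaling, to -0.89 and -0.99. Fkbp5 was not called (-0.03, SE 0.131, adjusted p = 0.858), and library-size scaling gave -1.40 with a call. Under that scaling Mt2 lost its call (0.46, adjusted p = 0.263), and 3 of the 9 members were higher and 5 lower. Klf15 lost its call with the spread taken from all 28 libraries (-1.53, adjusted p = 0.109), and Klf9 without the filter on low counts (0.25, adjusted p = 0.0527). Beside these values stand the low smooth muscle markers and the mitochondrial ribosomal RNA of the hypoxic libraries, whose part in them was not tested.

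**Figure D3:**
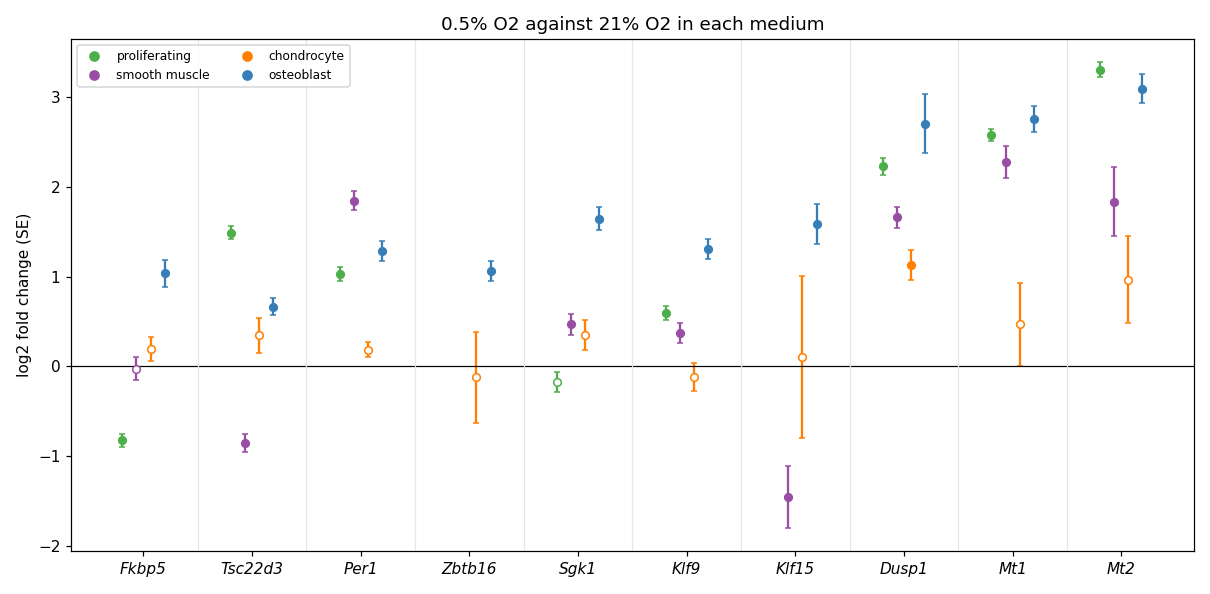
Log2 fold change of each member between 0.5% and 21% oxygen in each of the 4 media; points are edgeR estimates, bars their SE, and open circles are not called. The osteoblast points of all 10 members lie above 0, of the chondrocyte points only that of Dusp1 is called, with Mt2 at 0.97 not called, and Fkbp5 is below 0 in proliferating cells; with library-size scaling the smooth muscle points of Klf9 and Sgk1 fall below 0.

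Whether the oxygen response differed between the 2 media with dexamethasone was tested as a difference of differences. It was larger in osteoblast medium for 7 of the 10 members and smaller for 0 (20.1% of all genes higher, 17.7% lower), with a median of 1.36 against -0.01. The difference was 0.84 for Fkbp5 (SE 0.222, adjusted p = 0.008), 1.09 for Per1, 1.29 for Sgk1 (SE 0.22), 1.42 for Klf9, 1.56 for Dusp1 (SE 0.415, adjusted p = 0.0107), 2.28 for Mt1 and 2.12 for Mt2 (SE 0.515, adjusted p = 0.00662). It was not called for Tsc22d3 (0.31, adjusted p = 0.286), Zbtb16 (1.18, adjusted p = 0.0932) and Klf15 (1.46, adjusted p = 0.248). Zbtb16 was called with limma-voom (1.31, adjusted p = 0.0417) and with all 28 libraries in the fit (1.18, adjusted p = 0.0413). Without hypoxic chondrocyte replicate 1, Zbtb16 (1.92, adjusted p = 0.00062) and Klf15 (3.13, adjusted p = 0.00307) were called too, 9 members in all.

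A second test asked whether the step from proliferating medium to the media with dexamethasone depended on oxygen, leaving out the smooth muscle groups. Of the members, 2 were called higher and 3 lower, counts near the shares of all genes (26.1% higher, 23.0% lower). The step was larger under hypoxia for Fkbp5 (1.47, SE 0.174, adjusted p = 6.93e-07) and Sgk1 (1.21, SE 0.184, adjusted p = 1.65e-05). It was smaller under hypoxia for Tsc22d3 (-0.95, SE 0.173, adjusted p = 0.00011), Mt1 (-0.93, SE 0.358, adjusted p = 0.04) and Mt2 (-1.23, SE 0.392, adjusted p = 0.0149). Per1 (-0.26, adjusted p = 0.0664), Klf9 (0.04) and Dusp1 (-0.27, SE 0.303) were not called, although Per1 was called with other scalings and filters (adjusted p down to 0.0169) and without hypoxic chondrocyte replicate 1 or hypoxic osteoblast replicate 3 (down to 0.023), and Dusp1 without normoxic osteoblast replicate 4 (0.031). For Zbtb16 and Klf15 the SE of 4.18 and 2.59 left no usable estimate. With the smooth muscle groups included, 4 members were called, Tsc22d3 turned to 0.25 (adjusted p = 0.0983), Mt2 lost its call (-0.47, adjusted p = 0.262) and Per1 was called (-0.64). Mt1 lost its call in 13 of 21 fits that left out 1 library (adjusted p up to 0.0786), and limma-voom called neither Mt1 (0.0737) nor Mt2 (0.0575).

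In 4 libraries every member was the highest or the lowest of its group; hypoxic osteoblast replicate 3, highest for 8 and lowest for 2, is one of them, and the other 3 are described here. In normoxic osteoblast replicate 4, 7 members were below and 3 above the other 3 libraries: Dusp1 was at 0.36 of their mean, Klf15 at 0.494, Fkbp5 at 0.648, Sgk1 at 0.749, Zbtb16 at 0.758, Klf9 at 0.763 and Tsc22d3 at 0.86, while Per1 was at 1.08, Mt1 at 1.34 and Mt2 at 1.46. The same library held 775.6 CPM of Col2a1, the main cartilage collagen, against 35.6 to 43.6 in the others, and 40.02 CPM of the mineralisation enzyme Alpl against 1.39 to 2.52. In hypoxic chondrocyte replicate 1 all 10 members were above both other libraries, from 1.24 times their mean for Per1 to 2.06 for Mt2, 3 for Zbtb16 and 7.47 for Klf15. That library had the lowest Col2a1 of its group, 194.1 CPM against 256.1 and 372.2, the lowest Acan, 455.8 against 682.5 and 727.6, and the lowest Sp7, 166.7 against 281.1 and 258.1. Normoxic chondrocyte replicate 4 was the highest of its group for 9 members, among them Mt1 (513.5 CPM against 134.7 to 324.0) and Klf15 (19.0 against 4.63 to 12.7), and the lowest for Per1. It held 2024 CPM of Col2a1, within the range of the others (1039 to 5879), and the lowest Alpl, 126 against 281.5 to 361.5. Without it Sgk1 was called lower in normoxic chondrocyte than in proliferating cells (adjusted p = 0.0106), and Zbtb16 between the chondrocyte groups, not called, went from -0.12 to 0.10. The part of these markers in the members' levels was not tested.

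**Figure D4:**
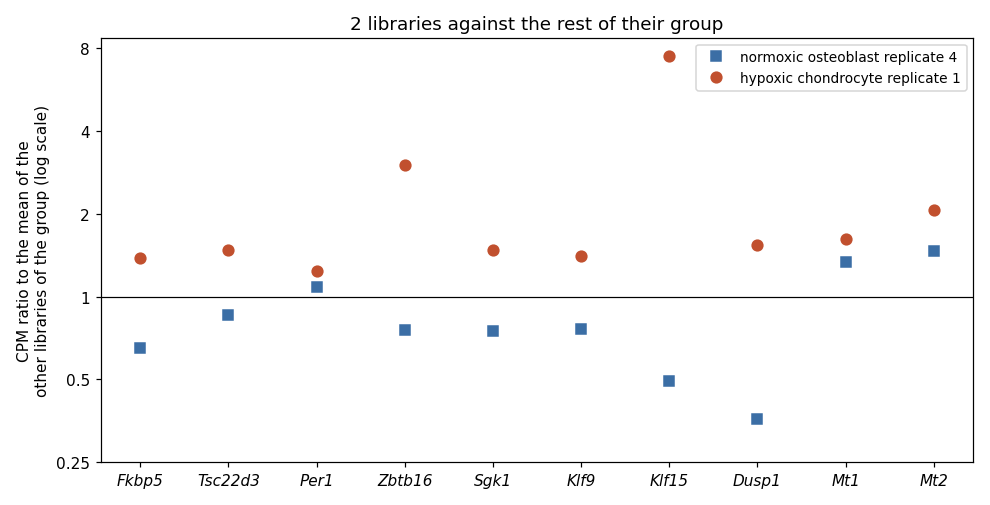
CPM of each member in normoxic osteoblast replicate 4 (squares) and hypoxic chondrocyte replicate 1 (circles), divided by the mean of the other libraries of the group, on a log axis; the line at 1 marks no difference. All 10 circles lie above 1, and 7 of the 10 squares lie below it.

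The receptor itself was expressed in every group. Nr3c1, which encodes it, was at 138 ± 1.61 CPM (SD, n = 4) in normoxic proliferating, 173.9 in smooth muscle, 78.2 in chondrocyte and 124.1 in osteoblast cultures, and at 152.3, 138, 84.4 and 200.9 in the hypoxic groups in the same order. It was lower in chondrocyte than in proliferating cultures at 21% (-0.75, SE 0.0685, adjusted p = 8.13e-07) and at 0.5% oxygen (-0.86, SE 0.109), higher in hypoxic than in normoxic osteoblast cultures (0.69, SE 0.126, adjusted p = 0.00147), and not called between the chondrocyte groups (0.10, adjusted p = 0.574). Its oxygen response was larger in osteoblast than in chondrocyte medium (0.58, SE 0.186, adjusted p = 0.0218). Nr3c2, the mineralocorticoid receptor, stayed at or below 0.155 CPM on average in every group, and Hsd11b1 and Hsd11b2, which activate and inactivate endogenous glucocorticoids, at or below 0.426 and 1.69. Fkbp4, the co-chaperone that Fkbp5 opposes, went the other way from Fkbp5 in the media with dexamethasone (-1.14 at 21%, SE 0.0584, adjusted p = 8.49e-12; -1.24 at 0.5%, SE 0.0749). In the list counts that follow, the shares of all genes called higher and lower, against which each count is to be read, were 35.1% and 34.8% in the normoxic and 38.7% and 36.3% in the hypoxic contrast of media, 27.0% and 27.3% between the osteoblast groups and 10.4% and 11.8% between the chondrocyte groups. Of the receptor list of 18 genes (receptors, chaperones, co-regulators, steroid enzymes and exporters), 8 of 16 tested were higher and 7 lower in normoxic media with dexamethasone, 6 and 6 of 15 in hypoxic ones, and 5 and 3 of 16 in hypoxic against normoxic osteoblast cultures, the last 2 pairs of counts near these shares.

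Other genes that glucocorticoids are known to induce were mostly higher as well. In a list of 23 such genes, 17 of 21 tested were called higher and 3 lower in normoxic media with dexamethasone (median 0.98), and 15 and 3 of 21 in hypoxic ones (median 1.04). Hif3a, a hypoxia-inducible factor subunit, was at 0 CPM in both proliferating groups and at 35.9 and 90.9 CPM in normoxic and 19.6 and 105.7 in hypoxic chondrocyte and osteoblast cultures, with no call between hypoxic and normoxic osteoblast cultures (0.22, adjusted p = 0.121). Lcn2, a siderophore-binding acute-phase protein, averaged 12.0 CPM in normoxic and 67.8 in hypoxic osteoblast cultures, and Orm1, another acute-phase protein, 1.03 CPM in normoxic chondrocyte and 2.01 in hypoxic osteoblast cultures against 0 in normoxic proliferating cells. Between oxygen levels the list gave 16 higher and 1 lower of 21 in osteoblast medium (median 1.14; 27.0% of all genes higher, 27.3% lower) and 4 and 1 of 19 in chondrocyte medium (median 0.07; 10.4% and 11.8%). In hypoxic osteoblast against hypoxic chondrocyte cultures all 20 tested were higher (median 2.60; 29.0% of all genes higher, 28.6% lower), and 16 of 20 in the normoxic counterpart, with 2 lower (31.1% and 28.6%). Tat and Pck1, liver enzymes of the list, had 6 and 4 reads over all libraries.

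Genes that glucocorticoids are known to lower were mostly called lower in the media with dexamethasone. Of 14 listed, 10 could be tested, and 0 were higher and 7 lower at 21% oxygen (median -2.71) and 1 higher and 8 lower at 0.5% (median -1.62). Mmp3, a matrix protease, averaged 45.0 CPM in normoxic proliferating, 4.47 in smooth muscle, 0.0101 in chondrocyte and 0.157 in osteoblast cultures (contrast -8.29, SE 0.48, adjusted p = 4.7e-10; hypoxic -7.79). The chemokine Ccl2 was lower by 5.14 and the protease Mmp9 by 4.53 on the log2 scale in the normoxic contrast. Under hypoxia in osteoblast medium 4 of the 6 genes tested were higher and 0 lower than at 21% oxygen. Il1b had no read in any library and Tnf had 3.

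Zinc-handling genes gave a setting for the metallothioneins. In hypoxic osteoblast cultures Mt3 and Mt4, the paralogs in the same cluster, averaged 44.8 and 28.03 CPM and were higher than in normoxic ones by 4.66 (SE 0.319, adjusted p = 9.18e-06) and 7.45 (SE 0.422, adjusted p = 2.66e-06). Mtf1, the metal sensor, did not pass the test there (0.10, adjusted p = 0.511), nor did Slc30a1, the zinc exporter that MTF1 induces (-0.43, adjusted p = 0.0872). In the normoxic contrast of media, Slc30a1 was higher by 1.23 (SE 0.118, adjusted p = 4.37e-08), Mtf1 by 0.29 (SE 0.061) and the zinc importer Slc39a10 was lower by 0.87. Over the list of 6 zinc genes, 2 of 4 tested were higher and 1 lower in normoxic, and 4 and 1 of 5 in hypoxic media with dexamethasone, and 3 of 5 were higher and 0 lower in hypoxic against normoxic osteoblast cultures; so few genes say little beside the shares of all genes given above.

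Clock genes, read beside Per1, moved in both directions. Of 12, 6 were higher and 3 lower of 12 tested in normoxic and 6 and 3 of 11 in hypoxic media with dexamethasone, 6 and 2 of 12 with low oxygen in osteoblast medium, and 1 and 5 of 11 in chondrocyte medium. Per2, its partner, was higher in media with dexamethasone by 1.70 (SE 0.105, normoxic) and 2.20 (hypoxic), Arntl by 1.45 and Ciart by 1.19 in the normoxic contrast, and Dbp was lower by 2.48 in the hypoxic one. The normoxic groups were unlike for 2 of these. Arntl averaged 21.7 CPM in proliferating, 10.9 in smooth muscle, 79.05 in chondrocyte and 21.8 in osteoblast cultures. Ciart averaged 3.36, 0.296, 4.14 and 1.24 in the same order, so osteoblast cultures held less of it than proliferating cells. Dbp averaged 188.8 CPM in hypoxic smooth muscle cultures against 19.8 in proliferating, 4.01 in chondrocyte and 30.5 in osteoblast cultures, the last being called higher than proliferating cells (0.62, adjusted p = 3.49e-05). Immediate early genes, read beside Dusp1, gave 4 higher and 3 lower of 10 in normoxic and 4 and 4 in hypoxic media with dexamethasone, near the shares of all genes, and 7 higher and 1 lower with low oxygen in osteoblast medium. Fos averaged 6.02 CPM in normoxic and 127.6 CPM in hypoxic osteoblast cultures (4.41, SE 0.179), and in the normoxic contrast of media it was higher by 1.72 while Fosb and Jun were lower by 1.37 and 1.25. In the other normoxic groups Fos averaged 0.539 CPM in proliferating, 3.64 in smooth muscle and 3.55 in chondrocyte cultures.

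Targets of hypoxia-inducible factors were higher at 0.5% oxygen in both media with dexamethasone. All 11 listed were called in osteoblast medium (median 3.43) and 10 of 11 in chondrocyte medium (median 1.70), among them the glycolytic enzyme Pgk1 by 3.23 and 1.70. At 21% oxygen 9 of the 11 were already higher in chondrocyte than in proliferating cells (median 2.02; 37.7% of all genes higher, 37.2% lower), whereas osteoblast cultures had 4 higher and 5 lower, near the shares of all genes (median 0.03; 40.9% and 37.8%), with Pgk1 at 311.8 against 866.5 CPM in proliferating cells. In the normoxic contrast of media 9 of 11 were higher with dexamethasone, led by the prolyl hydroxylase Egln3 (3.56, SE 0.14), Car9 (3.47) and Bnip3 (1.62). In the hypoxic contrast of media 3 were higher and 5 lower, with Pgk1 lower by 2.20. Pgk1 averaged 33020 CPM in hypoxic smooth muscle and 5409 in hypoxic proliferating cultures, and against the latter alone it was lower by 0.88 in chondrocyte and by 0.89 in osteoblast cultures.

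Cell type markers moved with the same media. Of the adipocyte list of 8 genes, 4 could be tested; 3 were higher and 1 lower in normoxic media with dexamethasone and 3 and 0 in hypoxic ones, and 2 and 2 between hypoxic and normoxic osteoblast cultures. In the normoxic contrast Fabp4 (5.08) and Cebpa (2.39) were higher and Lpl (-1.95, adjusted p = 3.32e-05) lower, with Lpl at 55.7 CPM in smooth muscle and at most 1.63 CPM on average in the other normoxic cultures. Cebpa averaged 0.0879 CPM in normoxic proliferating, 1.68 in smooth muscle, 1.55 in chondrocyte and 2.29 in osteoblast cultures. The list's summed level was 10.6 to 17.7 CPM in normoxic and 55.9 to 60.3 in hypoxic osteoblast cultures, where Pparg reached 36.1 and Fabp4 21.0 CPM while the defining Adipoq, Cfd and Lep were at 0. The chondrocyte list (4 of 4 tested) and the osteoblast list (4 of 4) were higher in the media with dexamethasone at both oxygen levels, led by Col2a1 and Ibsp. At 21% oxygen Col9a1 (10.86) and Col11a1 (5.72) followed Col2a1, and Sp7 (7.72) and Alpl (7.58) followed Ibsp. This contrast averages 2 unlike groups for the osteoblast list: at 21% oxygen its sum was 1050 to 2550 CPM in chondrocyte and 62.7 to 146 CPM in osteoblast cultures, where Runx2 was not called against proliferating cells (0.05, adjusted p = 0.605). Of the smooth muscle list, 4 of 4 were higher at 21% and 3 of 4 at 0.5% oxygen. The normoxic groups without dexamethasone were unlike here too, with sums of 47.7 to 53.1 CPM in proliferating and 3320 to 3760 CPM in smooth muscle cultures, the latter above the chondrocyte cultures (1910 to 2290 CPM) and within the range of the osteoblast ones (3060 to 4680 CPM). Of the neural crest list, 2 of 6 were higher and 1 lower at 21%, led by Msx2 (5.42) and Msx1 (2.85), with Twist1 lower by 0.27, and 5 and 1 of 6 at 0.5%, while Sox10 had 1 read over all libraries. The part of these markers in the members' levels was not tested.

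Across the 28 libraries the members followed one another to unequal degrees. With Fkbp5, Pearson's r of log2(CPM + 1) was 0.932 for Zbtb16, 0.891 for Tsc22d3, 0.867 for Klf9, 0.847 for Sgk1, 0.764 for Klf15, 0.722 for Mt2, 0.685 for Per1, 0.617 for Mt1 and 0.243 for Dusp1. The closest pairs were Tsc22d3 with Zbtb16 (0.979) and Mt1 with Mt2 (0.977). Of 16539 other genes, those most like Fkbp5 were Deptor (0.974), Map3k6 (0.964), Clint1 (0.963), Col15a1 (0.959) and Degs1 (0.956), and Zbtb16 ranked 13th and Tsc22d3 46th. The libraries share their groups, so these values mainly describe the pattern over 8 groups.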

How the data were processed

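Gene counts of 28 polyA RNA-seq libraries were analysed. The submitters' processing notes name HISAT2 2.0.5, StringTie 1.3.3b, featureCounts 1.5.0-p3 and the build mm10. The authors deposited raw counts per gene, 70 columns of normalised values that were not used, and 10 tables of their own comparisons with log2 fold changes and p-values, in which the members' signs matched those given here in 95 of 95 cases. Symbols came from the deposited tables (20019 genes) or GENCODE vM21 (34311); 99 genes had none.

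Counts were tested with edgeR 4.0.16 in R 4.3.3 (two-sided quasi-likelihood test, robust, TMM trimming 30% and 5%, filterByExpr with a minimum of 10 counts and a total of 15), each comparison on its own groups, with Benjamini-Hochberg adjustment and calls below 0.05. SE is the absolute log2 fold change over the root of F. Scripts were tested on simulated data. Depth was 19.87 to 64.69 M counts, and floors (3 counts) cover counting error only. Comparisons of osteoblast with chondrocyte medium (3) and per-length levels were added after the data were seen.

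The members and lists (receptor, induced, repressed, zinc, clock, immediate early, hypoxia, adipocyte, neural crest, chondrocyte, osteoblast, smooth muscle) were chosen with earlier results of these data known. Named were all members, 5 receptor genes, per other list the 3 called genes of largest change in the normoxic and 1 in the hypoxic contrast of media, list genes near 0 and the 5 genes most like Fkbp5. Mt3, Ptgs2, Il11, Mmp13, Il6 and the further markers given beside a comparison were chosen after their values were seen. Alternatives were DESeq2 1.42.0, voom (limma 3.58.1), other scalings and filters, all libraries in 1 fit, a replicate block and leaving out libraries. Replicate numbers did not pair libraries, and no 2 libraries held identical counts.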

Additional observations from a re-analysis of the deposited data

Results flagged for a closer look

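In groups of 4 libraries, a library was flagged where its distance from the nearest other was, as a share of the group's range, above Dixon's critical value at 95%. Of 40 such groups, 10 were flagged, and chance flags about 1 in 20. The 40 are not independent, since the members share libraries and follow one another, so the count cannot be weighed against that rate. Normoxic osteoblast replicate 4 accounted for 8 of them: it was the lowest library for Fkbp5 (360 CPM), Tsc22d3 (1060), Sgk1 (467), Klf9 (177), Klf15 (27.7) and Dusp1 (8.84), and the highest for Mt1 (773) and Mt2 (765). The others were normoxic proliferating replicate 4 for Sgk1 (498 CPM) and normoxic smooth muscle replicate 3 for Zbtb16 (0.145 CPM, where the 3 other libraries held 0 reads).

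The step from proliferating medium to media with dexamethasone differed between oxygen levels, by the edgeR interaction test, for Fkbp5 (1.47), Sgk1 (1.21), Tsc22d3 (-0.95), Mt1 (-0.93) and Mt2 (-1.23 on the log2 scale, hypoxic minus normoxic). These counts were near the shares of all genes (26.1% higher, 23.0% lower). With the smooth muscle groups included, Tsc22d3 changed sign and Mt2 was not called, and limma-voom called neither Mt1 nor Mt2. The oxygen response differed between osteoblast and chondrocyte medium for Fkbp5 (0.836), Per1 (1.09), Sgk1 (1.29), Klf9 (1.42), Dusp1 (1.56), Mt1 (2.28) and Mt2 (2.12), each larger in osteoblast medium. Of all genes tested there, 20.1% were called higher and 17.7% lower.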

How the results depend on the processing

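Leaving out 1 library at a time gave 1435 values for members, of which 1383 kept direction and side of the threshold, 35 lost and 7 gained a call and 10 changed sign. Sign changes, all in values not called, gave ranges of -0.102 to 0.0219 for Fkbp5 between the smooth muscle groups, -1.55 to 0.55 for Klf15 and -0.86 to 0.14 for Zbtb16 between the chondrocyte groups, and -0.0411 to 0.108 for Klf9 in the oxygen-by-media interaction. In the chondrocyte oxygen comparison 2091 to 3359 genes were called (3157 with all libraries; the lowest without hypoxic chondrocyte replicate 3) and 1 to 2 members. With the spread estimated over all 28 libraries 3 members were called there, Tsc22d3 and Mt2 besides Dusp1.

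With library-size scaling 140 of 155 values kept their sign and side of the threshold; it turned Sgk1 in hypoxic chondrocyte against proliferating (-0.13), Dusp1 (-0.88), Klf9 (-0.81) and Mt2 (-0.11) in hypoxic smooth muscle against proliferating, Klf9 (-0.99) and Sgk1 (-0.89) between the smooth muscle groups, and Klf9 in the interaction (-0.0346; -0.0129 with a stricter filter). Fkbp5 between the smooth muscle groups was 0.0131 with DESeq2-type size factors and 0.0122 with DESeq2. Limma-voom gave -0.33 for Klf15 between the chondrocyte groups and called 3 members, not 5, in the interaction. With the smooth muscle groups in the interaction, Tsc22d3 (0.25), Dusp1 (0.0379) and Klf15 (0.50) changed sign. The cause was not tested.

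Replicate numbers did not pair libraries: correlations of deviations ran from -0.283 to 0.111, and 21 of 80 libraries correlated best with their own number, in 0 of 12 comparisons all of them. With the replicate number as a block, 149 of 155 values kept sign and side, Fkbp5 (normoxic) and Klf15 (hypoxic) lost their calls between osteoblast and chondrocyte cultures, 2 members (Dusp1, Sgk1) were called between the chondrocyte groups, Klf15 was -0.22 there, and Fkbp5 was 0.0097 between the smooth muscle groups. Limits: 3 or 4 libraries per group of 1 line, few reads for Zbtb16 without dexamethasone and for Klf15 in proliferating and hypoxic smooth muscle cells, and media that differ in several ingredients.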
